A study of Rattus norvegicus with 3 samples.

Results

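The genes described here are 8 genes of phosphate transport and pyrophosphate handling in the rat enamel organ: Slc34a2, Slc20a1, Slc20a2, Xpr1, Alpl, Phospho1, Enpp1 and Ankh. They were taken as a fixed list of symbols, and 8 of the 8 were found among the 16516 genes of the authors' deposited table. RNA was sequenced from 3 dissected cell populations of Wistar Hannover rats: the cervical loop, and the ameloblast layer at its secretory and at its maturation stage. The labels give 5 rats as the source, and 1 cervical loop library was left out for low RNA integrity. No genotype, treatment or age is given in the sources used here. Each population is deposited as 1 least-squares mean per gene, so no spread between libraries can be printed beside a level.

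Enamel is built from calcium phosphate. Ameloblasts arise from the cervical loop, lay down a protein matrix during the secretory stage, and then remove it during maturation while the crystals thicken. Phosphate enters cells through sodium-coupled carriers of the SLC34 and SLC20 families and leaves them through XPR1. Pyrophosphate, made outside the cell by ENPP1 or released with the help of ANKH, is a strong inhibitor of crystal growth. Tissue-nonspecific alkaline phosphatase, the product of Alpl, splits pyrophosphate into phosphate, and PHOSPHO1 frees phosphate from phosphocholine and phosphoethanolamine inside matrix vesicles. In teeth, alkaline phosphatase is best known from the stratum intermedium, the cell layer next to the ameloblasts, and from odontoblasts and bone.

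Levels below are the authors' means, on a normalised linear scale whose unit is not stated in the file headers. They are compared between stages within a gene, never between genes. FDR is the false discovery rate of the authors' deposited table, and a gene passed for a pair of stages when it was below 0.05. Assuming 6 error degrees of freedom made the p-values of the 3 stage pairs most compatible (median mismatch 0.748% over genes, and 4.82% for 7). An approximate standard error (SE) of each log2 ratio was therefore taken as the ratio divided by the t value that gives the deposited p at 6 degrees of freedom. The 95% intervals below rest on that SE and are not adjusted for the number of genes. The median gene had a log2 ratio of -0.14 from cervical loop to secretory cells, 0.0046 from secretory to maturation cells and -0.12 from cervical loop to maturation cells, and changes are to be read relative to these shifts. In dissected tissue, fewer cells of a type and less RNA per cell cannot be told apart.

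Slc34a2, Xpr1 and Alpl rose at both steps, from the cervical loop to the secretory stage and from there to maturation. The windows of 250 bases before their RefSeq start sites are shown because these 3 genes moved together. They come from the RefSeq promoter table of build GRCr8, which is not the rn6 build named in the submitters' processing notes, and read 5′ to 3′ on the gene's strand. Capitals mark matches on either strand to 6 motifs. They were the TATA box variants TATAAA and TATATA, the GC box GGGCGG, the CCAAT box, the E-box CACGTG and the cyclic AMP element core TGACG.
Slc34a2, chr14:62143073-62143322, minus strand: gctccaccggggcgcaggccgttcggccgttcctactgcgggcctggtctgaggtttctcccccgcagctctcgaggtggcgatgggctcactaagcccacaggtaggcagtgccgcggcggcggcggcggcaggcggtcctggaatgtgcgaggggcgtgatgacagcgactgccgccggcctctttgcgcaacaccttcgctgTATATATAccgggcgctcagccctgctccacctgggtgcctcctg
Xpr1, chr13:70136165-70136414, minus strand: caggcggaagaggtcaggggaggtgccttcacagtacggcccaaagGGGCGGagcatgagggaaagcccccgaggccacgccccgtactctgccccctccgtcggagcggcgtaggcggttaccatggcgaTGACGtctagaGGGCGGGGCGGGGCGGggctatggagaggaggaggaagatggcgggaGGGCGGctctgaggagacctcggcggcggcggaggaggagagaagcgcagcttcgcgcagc
Alpl, chr5:155289786-155290035, minus strand: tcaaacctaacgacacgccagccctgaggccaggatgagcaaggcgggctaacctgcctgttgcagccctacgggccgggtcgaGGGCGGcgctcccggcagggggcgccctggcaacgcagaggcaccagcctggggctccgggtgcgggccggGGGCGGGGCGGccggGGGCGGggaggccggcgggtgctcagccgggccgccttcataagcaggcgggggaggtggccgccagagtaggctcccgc

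The 3 windows differ in the motifs they hold. The Slc34a2 window holds 2 overlapping TATATA matches, 38 to 45 bases before the start, and 0 GGGCGG matches. The Xpr1 window holds 5 GGGCGG matches, 3 of them sharing bases with a neighbour, and 1 TGACG match. In the Alpl window there are 4 GGGCGG matches and none of the other 5 motifs. Of the 33469 windows of this length in the table, 5.45% hold TATATA, 30.5% hold GGGCGG and 18.2% hold TGACG. The share was 12.9% for TATAAA, 34.0% for the CCAAT box and 5.59% for CACGTG. GC content was 68.8% for Slc34a2 and 76.0% for Alpl, with Xpr1 between them, against a median of 51.2% over all windows. Windows of Phospho1 and Ankh, which did not rise, hold 3 and 2 GGGCGG matches. Their GC content was 76.0% and 79.2%, so a high GC content was not particular to the genes that rose. With these, 5 of the 8 genes matched the table; Slc20a1, Slc20a2 and Enpp1 did not. A match is a run of letters and not a shown binding site.

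Phosphate uptake was examined first. Slc34a2 encodes the sodium-phosphate cotransporter NaPi-IIb, known from the apical membranes of intestine and lung. Its mean was 0.521 in the cervical loop, 4.26 in secretory and 248 in maturation cells in the authors' deposited table. Nearly all of its signal thus lay in one stage: maturation held 98.1% of the 3 means added up, the secretory stage 1.68% and the cervical loop 0.206%. Slc34a2 was 8.17-fold higher in secretory than in cervical loop cells by the authors' deposited table (FDR = 0.013), a log2 ratio of 3.03 with an SE of 0.65. From the secretory stage to maturation, Slc34a2 was 58.3-fold higher by the authors' deposited table (FDR = 0.000544), a log2 ratio of 5.87 with an SE of 0.50 and an interval from 24.8-fold to 137-fold. Maturation against cervical loop gave a Slc34a2 ratio of 476 by the authors' deposited table (FDR = 0.000119). That ratio ranked 2 from the top of 16516 genes, and it also ranked 2 with 1 added to both means. The cervical loop mean is low, and with 1 added the Slc34a2 folds became 3.46 at the first step, 47.4 at the second and 164 across both.

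The SLC20 carriers serve phosphate uptake in most cell types. Slc20a1 peaked in the secretory stage, and Slc20a2 was higher in both ameloblast stages than in the cervical loop. Slc20a1 (PiT-1) had means of 36.6 in the cervical loop, 107 in secretory and 57.3 in maturation cells in the authors' deposited table. The secretory level was the highest and the 3 stages all differed. Slc20a1 was 2.92-fold higher in secretory than in cervical loop cells by the authors' deposited table (FDR = 0.000813, log2 ratio 1.54, SE 0.14). It then fell 1.86-fold into maturation by the authors' deposited table (FDR = 0.00326, log2 ratio -0.90, SE 0.13). Maturation stayed 1.57-fold above the cervical loop for Slc20a1 by the authors' deposited table (FDR = 0.00727). Slc20a2 (PiT-2) had means of 49.4, 308 and 266 in the same order in the authors' deposited table. Its 2 ameloblast stages both stood well above the cervical loop. Slc20a2 was 6.24-fold higher in secretory cells (FDR = 0.00149) and 5.38-fold higher in maturation cells (FDR = 0.00099) than in the cervical loop in the authors' deposited table. Slc20a2 had an FDR of 0.445 between the secretory stage and maturation in the authors' deposited table and so did not pass. The interval of that Slc20a2 ratio ran from 0.608 to 1.22, so a fall or rise within those bounds could not be detected at this precision.

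**Figure D1:**
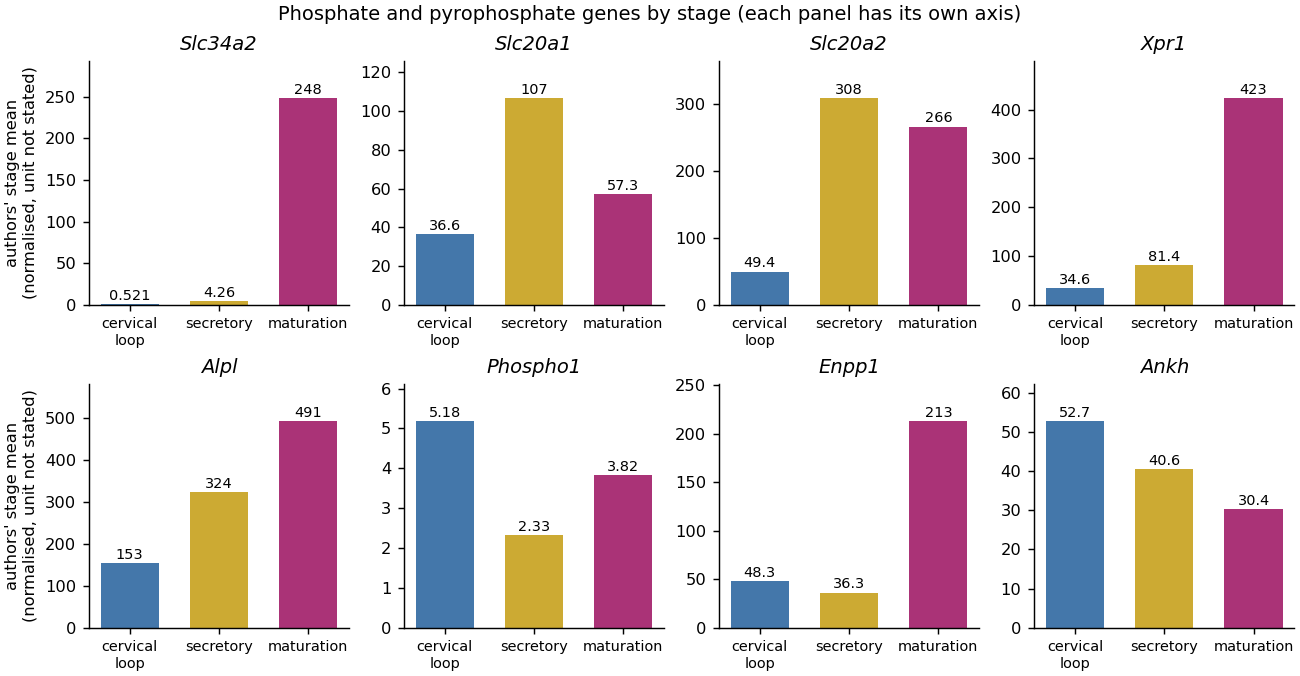
Bars give the authors' mean of each gene (vertical axis, normalised linear scale of unstated unit, 1 axis per panel, starting at 0) in the cervical loop, secretory and maturation stages. Slc34a2, Xpr1, Alpl and Enpp1 are highest in maturation (248, 423, 491 and 213), Slc20a1 and Slc20a2 in the secretory stage (107 and 308), and Phospho1 and Ankh in the cervical loop (5.18 and 52.7). No error bars can be drawn, since 1 mean is deposited per stage.

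Phosphate export followed the pattern of Slc34a2 with a smaller range. Xpr1 encodes the phosphate exporter of animal cells. Its mean was 34.6 in the cervical loop, 81.4 in secretory and 423 in maturation cells in the authors' deposited table. The order was cervical loop, secretory, maturation, and each neighbouring pair differed. Xpr1 was 2.35-fold higher in secretory than in cervical loop cells (FDR = 0.00144) and 5.2-fold higher in maturation than in the secretory stage (FDR = 0.000191) in the authors' deposited table. Those log2 ratios were 1.23 and 2.38, with SEs of 0.14 and 0.13. Across both steps Xpr1 was 12.2-fold higher by the authors' deposited table (FDR = 5e-05, interval 9.81-fold to 15.2-fold).

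Xpr1 and Alpl are the members in the authors' deposited isoform tables, with 3 and 2 transcripts. Transcript Xpr1-201 carried 89.7% of the summed Xpr1 transcript means in the cervical loop and 90.4% in maturation. It stood at 28.1 and 386 (FDR = 4.63e-06) in the authors' deposited isoform table of that pair. Xpr1-203 and Xpr1-202 were 14.9-fold (FDR = 7.54e-05) and 11.5-fold (FDR = 0.000113) higher in maturation than in the cervical loop in that authors' deposited isoform table. Their cervical loop means differ between the authors' deposited isoform tables, 1.1 and 2.25 for Xpr1-203 and 2.13 and 3.28 for Xpr1-202. With the second of each, a choice made after seeing the data, the folds would be 7.29 and 7.5. Neither passed at the first step in the authors' deposited isoform table (FDR = 0.132 for Xpr1-203 and FDR = 0.906 for Xpr1-202). For Alpl, transcript Alpl-201 carried 90.3% in the cervical loop and 90.5% in maturation. Over all transcripts, 16.0% passed at the first step, 17.0% at the second and 25.1% from cervical loop to maturation. Alpl-201 passed at neither step in the authors' deposited isoform tables (1.95-fold, FDR = 0.198, and 1.52-fold, FDR = 0.119), although the gene as a whole passed at both. From cervical loop to maturation Alpl-201 was 2.92-fold higher in the authors' deposited isoform table (FDR = 0.0141). The authors' own test for a change of isoform make-up, adjusted by Benjamini-Hochberg, passed in 0 of 6 tests of Xpr1 and Alpl, with adjusted p from 0.586 to 0.994. None of the 6 had an unadjusted p below 0.05 either, the range being 0.112 to 0.942. The share of tested genes that passed was 1.19% at the first step, 1.80% at the second and 2.79% across both.

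Phosphate release by phosphatases went in different directions. Alpl had means of 153 in the cervical loop, 324 in secretory and 491 in maturation cells in the authors' deposited table. Levels stepped up at each stage and all pairs differed. Alpl was 2.11-fold higher at the first step (FDR = 0.00484, log2 ratio 1.08, SE 0.18) in the authors' deposited table. The second step was smaller for Alpl, 1.52-fold by the authors' deposited table (FDR = 0.0124, log2 ratio 0.60, SE 0.13). Maturation against cervical loop gave 3.21-fold for Alpl by the authors' deposited table (FDR = 0.000333). Beside it, the 9 means of stratum intermedium markers added up to 112, 109 and 115 in the 3 stages. Notch1, which fell into maturation, holds the largest share of that sum, at 81.5, 69.5 and 54.2 in the authors' deposited table. The other 8 added up to 30.1, 39.0 and 61.2, a split made after the values were seen. Of the 9, 3 were higher and 0 lower at the first step, 4 higher and 3 lower at the second, and 4 higher and 2 lower across both. Those of odontoblasts and bone added up to 8106, 7386 and 9256, and without the collagen genes Col1a1 and Col1a2, which hold most of the sum, to 469, 238 and 337. Of these 9, 0 passed at the first step, and 1 was higher and 1 lower across both. The lower gene was Dspp, at 81.7, 22.2 and 0.0701 by the authors' deposited table (FDR = 0.00309 across both), so its maturation mean is at the floor. The higher gene was Runx2, at 107, 94.2 and 201 by the authors' deposited table (FDR = 0.0111 across both), named after its values were seen. The sums therefore do not stand for each gene of the list. All genes gave 16.5% higher and 25.2% lower at the first step, 21.8% and 21.1% at the second, and 24.1% and 33.7% across both. The part of stratum intermedium, odontoblast and bone cells in the Alpl result was not tested.

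Phospho1 had low means of 5.18 in the cervical loop, 2.33 in secretory and 3.82 in maturation cells in the authors' deposited table. The secretory stage was lowest. Phospho1 fell 2.23-fold from cervical loop to secretory cells by the authors' deposited table (FDR = 0.0393, log2 ratio -1.15, SE 0.34). Neither maturation against secretory (1.64-fold higher, FDR = 0.0715) nor maturation against cervical loop (1.36-fold lower, FDR = 0.471) passed for Phospho1 in the authors' deposited table. The maturation to cervical loop interval of Phospho1 ran from a ratio of 0.321 to 1.69. Its implied SE varied from 0.26 to 0.49 between pairs, and the p-values of its 3 pairs were the least compatible of the 8 (mismatch 4.79%). The SEs of Slc34a2 were larger, from 0.50 to 0.65. The test over the 3 stages together did not pass for Phospho1 by the authors' deposited table (FDR = 0.0511). Beside this gene, 9 of 9 odontoblast and bone markers did not pass for secretory against cervical loop, though their median log2 ratio was -0.91. Dspp stood at 81.7 and 22.2 and Bglap at 117 and 42.1 in that pair by the authors' deposited table (FDR = 0.0707 and FDR = 0.238). Whether these cells had a part in the Phospho1 result was not tested.

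The pyrophosphate suppliers also parted. Enpp1 encodes the ectoenzyme that makes pyrophosphate from extracellular ATP. Its mean was 48.3 in the cervical loop, 36.3 in secretory and 213 in maturation cells in the authors' deposited table. Maturation stood far above both other stages. Enpp1 did not pass for secretory against cervical loop by the authors' deposited table (1.33-fold lower, FDR = 0.0871). The unadjusted interval of that ratio ran from 0.572 to 0.987, so a fall at this step is not excluded. It rose 5.86-fold from secretory to maturation cells (FDR = 0.000256) and stood 4.4-fold above the cervical loop (FDR = 0.000203) in the authors' deposited table. Those Enpp1 log2 ratios were 2.55 and 2.14, each with an SE of 0.16. Enpp1 thus rose over the same step as Alpl, whose product breaks pyrophosphate down, and with a larger ratio, though the difference between the 2 ratios was not tested.

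Ankh encodes a membrane protein through which ATP and pyrophosphate reach the outside of the cell. Its means were 52.7, 40.6 and 30.4 from cervical loop to maturation in the authors' deposited table. Each stage was lower than the one before, but neighbouring stages did not differ beyond their error. Secretory against cervical loop was 1.3-fold lower (FDR = 0.118) and maturation against secretory 1.33-fold lower (FDR = 0.106) for Ankh in the authors' deposited table. Only the ends passed: Ankh was 1.73-fold lower in maturation than in the cervical loop by the authors' deposited table (FDR = 0.00782, log2 ratio -0.79, SE 0.16).

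**Figure D2:**
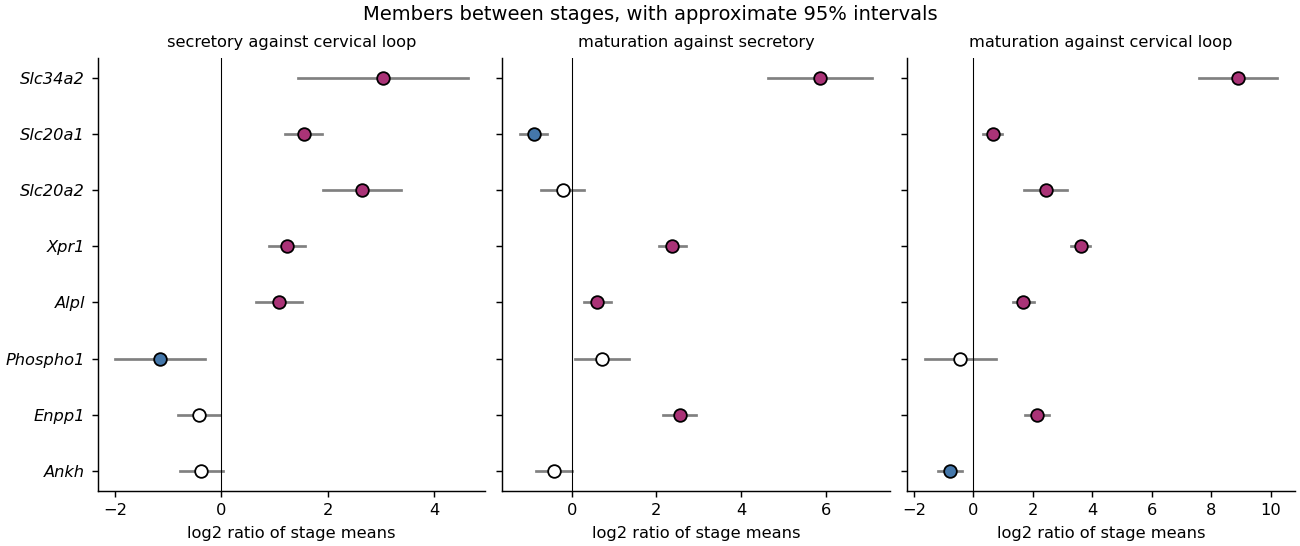
Points give the log2 ratio of stage means (horizontal axis) for each gene in the 3 pairs of stages, and lines the approximate 95% interval. Filled points passed at FDR below 0.05, higher in magenta and lower in blue, and open points did not. Slc34a2 lies far to the right in maturation (5.87 and 8.90), while Ankh and Phospho1 lie at or left of 0 in 5 of their 6 points.

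Counted together, 5 of the 8 genes were higher and 1 lower in secretory than in cervical loop cells. Of all genes, 16.5% were higher and 25.2% lower, 41.8% in either direction. From secretory to maturation 4 were higher and 1 lower, where all genes gave 21.8% and 21.1%, and 42.9% in either direction. Between maturation and cervical loop 6 were higher and 1 lower, against 24.1%, 33.7% and 57.8% of all genes. Median log2 ratios of the 8 genes were 1.16, 0.66 and 1.91 in these pairs. The 3 pairs share stage means, so these counts are not independent of each other. Slc34a2, Xpr1 and Alpl passed as higher at both steps, which held for 473 genes or 2.86% of the table. A difference anywhere among the 3 stages passed for 7 of the 8, where 67.2% of all genes passed, so this last count lies near the background.

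**Figure D3:**
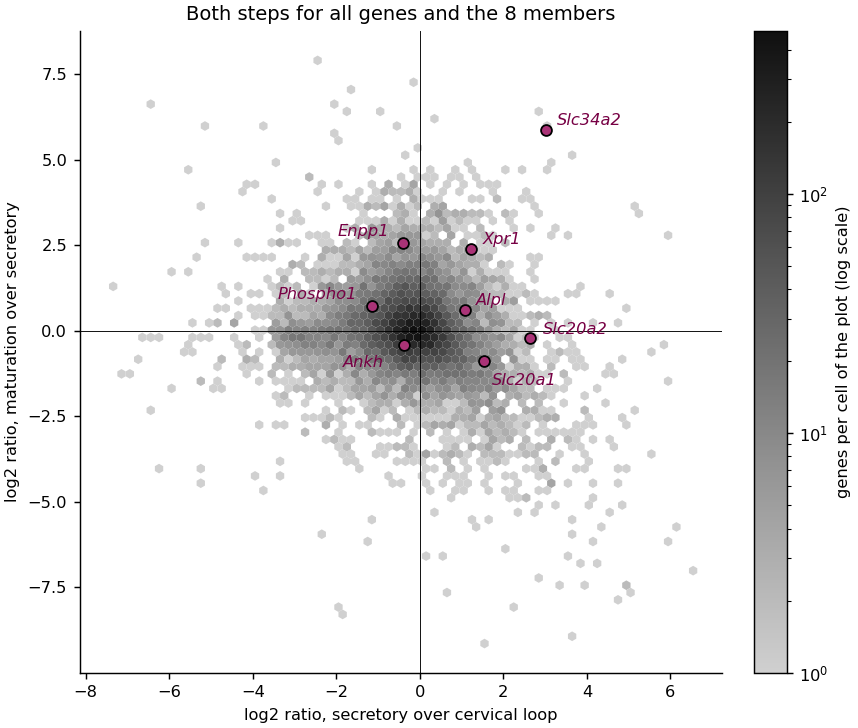
Each point in magenta is one of the 8 genes, placed by its log2 ratio of secretory over cervical loop (horizontal) and of maturation over secretory (vertical); grey cells count all genes on a log colour scale. Slc34a2 stands apart at 3.03 and 5.87, Slc20a1 and Slc20a2 lie right of 0 and below it, and Enpp1 lies left of 0 at -0.41 with 2.55 on the vertical axis. Both axes use the secretory mean, so a slope of the grey cloud cannot be read as a relation.

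Other genes of the pathway were described from 5 lists, of which 49 of 59 genes were measured. Together 14 were higher and 9 lower in secretory than in cervical loop cells, 16 and 11 in maturation than in secretory cells, and 17 and 9 in maturation than in cervical loop cells. All genes gave 16.5% higher and 25.2% lower, then 21.8% and 21.1%, then 24.1% and 33.7% in these pairs. The totals of 23, 27 and 26 of 49 stand beside 41.8%, 42.9% and 57.8% of all genes in either direction. Higher genes outnumbered lower ones in each pair, which held for all genes only from secretory to maturation cells. The lists were chosen with earlier results known, so this is not to be read as an enrichment. Their median log2 ratios were -0.10, 0.20 and -0.02. Slc34a1 and Slc34a3, the renal relatives of Slc34a2, and the 4 Slc17 genes of the list are not in the table and were not analysed here.

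Among the other phosphate carriers, all 4 measured genes are mitochondrial. Slc25a3, the main phosphate carrier of the inner mitochondrial membrane, had means of 118, 170 and 157 in the authors' deposited table. It was 1.44-fold higher in secretory than in cervical loop cells by the authors' deposited table (FDR = 0.000897). Slc25a23, an ATP-magnesium/phosphate carrier, rose from 1.03 to 2.22 and 3.79 by the authors' deposited table (FDR = 0.0265 and FDR = 0.0409 for the steps). Its relative Slc25a25 was 1.44-fold lower at the first step by the authors' deposited table (FDR = 0.0406), and Slc25a24, the remaining one, named after its values were seen, passed in no pair.

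Among 9 scaffolds and inositol pyrophosphate enzymes, 3 passed as higher at both steps (Sgk1, Kidins220 and Ip6k2), where 2.86% of all genes did, and the other 6 did not. In the other lists this held for 1 of 4 phosphate carriers and 0 of 11 endocrine genes. It held for 0 of 13 turnover genes and 0 of 12 phosphatases and mineral-binding proteins. The count of 3 was singled out after the values were seen and is not to be read as an enrichment. Inositol pyrophosphates bind the SPX domain of XPR1 and set its activity, and KIDINS220 is a partner of XPR1. Kidins220 had means of 110, 221 and 973 by the authors' deposited table, 2.0-fold higher at the first step (FDR = 0.0473) and 4.41-fold at the second (FDR = 0.00146). Ip6k2, an inositol hexakisphosphate kinase, was 1.26-fold and 2.08-fold higher at the steps by the authors' deposited table (FDR = 0.0185 and FDR = 0.000349), and was named after its values were seen. Ppip5k2, which makes inositol pyrophosphates as well, went the other way, from 42.6 to 21.7 and 21.5 by the authors' deposited table (FDR = 0.00134 for the first step, FDR = 0.937 for the second). Sgk1, a kinase that regulates sodium and phosphate carriers, had means of 26.1, 73.9 and 476 in the authors' deposited table. It was 2.83-fold higher at the first step and 6.45-fold at the second by the authors' deposited table (FDR = 0.00135 and FDR = 0.000223). Slc9a3r1 (NHERF1), a scaffold of apical carriers, dipped in secretory cells: 6.04, 2.88 and 15.2 by the authors' deposited table (FDR = 0.00627 and FDR = 0.000378). Pdzk1, another scaffold, was 1.36-fold lower in maturation than in secretory cells by the authors' deposited table (FDR = 0.0202). In all, 3 of 9 were higher and 2 lower at the first step, and 4 higher and 1 lower at the second. Shares of all genes were 16.5% and 25.2% at the first step, and 21.8% and 21.1% at the second.

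Of 11 measured genes of endocrine phosphate control, 2 were higher and 2 lower at the first step and 5 higher and 3 lower at the second. Of all genes, 16.5% were higher and 25.2% lower at the first step, and 21.8% and 21.1% at the second. The counts of this list include Fgf23, a phosphate-lowering hormone whose mean is under the floor of 0.1 in both ameloblast stages, so no fold is given for it. They also include Kl, whose mean of 0.0829 in maturation is under that floor. Fam20c, the kinase that phosphorylates secreted proteins, peaked in secretory cells with means of 35.5, 187 and 48.1 by the authors' deposited table (FDR = 0.000603 and FDR = 0.000712). Cyp27b1, which activates vitamin D, peaked there too at low means of 0.576, 2.1 and 0.253 by the authors' deposited table (FDR = 0.0123 and FDR = 0.00181). Maturation was highest for Galnt3, whose enzyme protects FGF23 from cleavage, at 7.0, 6.53 and 17.5 by the authors' deposited table (FDR = 0.00114 against the secretory stage). Stc2, a stanniocalcin, was 6.98-fold higher in maturation than in the secretory stage by the authors' deposited table (FDR = 0.0062). Pth1r, the parathyroid hormone receptor, was 2.42-fold lower in secretory than in cervical loop cells by the authors' deposited table (FDR = 0.0227). Phex, an endopeptidase whose loss wastes phosphate, was 11.7-fold lower in maturation than in the cervical loop by the authors' deposited table (FDR = 0.0154).

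Pyrophosphate and nucleotide turnover held 13 measured genes, 5 higher and 1 lower at the first step and 5 higher and 5 lower at the second. The shares of all genes were 16.5% higher and 25.2% lower at the first step, and 21.8% and 21.1% at the second. Entpd3, an ectoenzyme that removes phosphate from extracellular ATP, formed a sharp secretory peak of 247 between 19.4 and 15.1 in the authors' deposited table. It was 12.7-fold higher at the first step (FDR = 0.000738) and 16.3-fold lower at the second (FDR = 0.000425) in the authors' deposited table. Enpp1, which uses the same substrate, rose at the second step and did not pass at the first. Panx1, an ATP channel, was 2.06-fold higher in secretory than in cervical loop cells by the authors' deposited table (FDR = 0.00102). Its relative Panx3 was 4.73-fold lower in maturation than in the cervical loop by the authors' deposited table (FDR = 0.022). Cytosolic pyrophosphatase, Ppa1, had means of 117, 152 and 88.3 in the authors' deposited table and was 1.72-fold lower in maturation than in secretory cells (FDR = 0.000235). Its mitochondrial counterpart Ppa2 was 1.22-fold lower at the first step by the authors' deposited table (FDR = 0.0248). Lhpp, also a phosphatase, was 1.82-fold lower at the second step by the authors' deposited table (FDR = 0.0031). Entpd1 and Entpd2 were 1.84-fold and 1.92-fold higher in maturation than in the cervical loop by the authors' deposited table (FDR = 0.00402 and FDR = 0.0097). Enpp3, a relative of Enpp1, was 1.78-fold higher in maturation than in the secretory stage by the authors' deposited table (FDR = 0.0387).

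Of 12 other phosphatases and mineral-binding proteins, 2 were higher and 3 lower at the first step and 1 higher and 2 lower at the second. All genes gave 16.5% higher and 25.2% lower at the first step, and 21.8% and 21.1% at the second. Acp4, an acid phosphatase in which mutations cause enamel defects, had means of 15.6, 343 and 8.5 in the authors' deposited table. It was 22-fold higher at the first step (FDR = 0.00269) and 40.3-fold lower at the second (FDR = 0.00223) in the authors' deposited table. Mgp, an inhibitor of calcification, also peaked in secretory cells at 244, between 73.0 and 55.7, by the authors' deposited table (FDR = 0.00316 and FDR = 0.00146). Smpd3, a sphingomyelinase that acts beside PHOSPHO1 in skeletal mineralisation, fell from 120 in the cervical loop to 19.2 in secretory cells by the authors' deposited table (FDR = 0.0136). Acp1 and Acp2 were both 1.31-fold lower in secretory than in cervical loop cells by the authors' deposited table (FDR = 0.00273 and FDR = 0.00624). Acp1 was then 1.48-fold higher in maturation by the authors' deposited table (FDR = 0.000605).

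**Figure D4:**
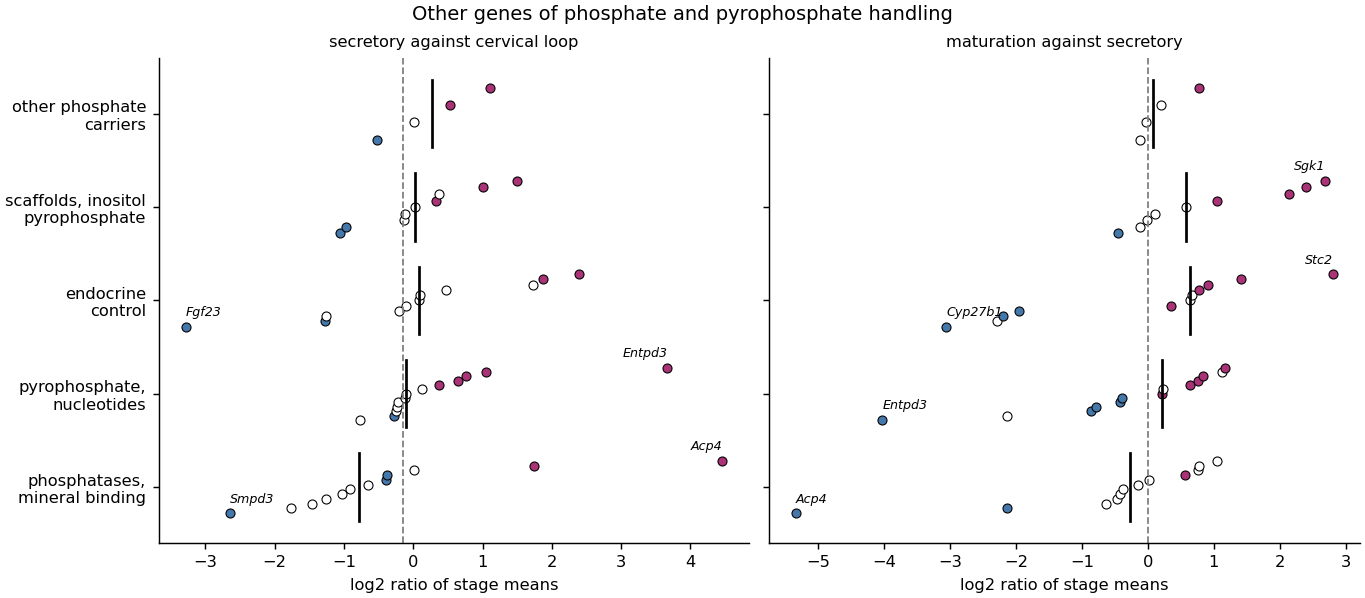
Each point is 1 gene of the 5 pathway lists, placed by its log2 ratio of stage means (horizontal axis) for secretory against cervical loop (left) and maturation against secretory (right). Magenta and blue points passed at FDR below 0.05 as higher and lower, open points did not, black bars are list medians and the dashed line is the median of all genes. Entpd3 and Acp4 lie at the far right on the left side and at the far left on the right side, and Sgk1 and Stc2 lie at the far right on the right side.

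Markers were set beside these results to check the labels and other cells. Cervical loop markers Sox2, Lgr5 and Mki67 were highest in cervical loop cells, with Mki67 at 289, 38.8 and 35.3 in the authors' deposited table. Sox2 and Lgr5 had low means, 3.33, 0.523 and 0.148 and 0.427, 0.105 and 0.102 in the authors' deposited table. Those of Lgr5 in both ameloblast stages lie close to the floor of 0.1. The 4 secretory markers, among them Amelx, Ambn and Enam, added up to 2920, 112877 and 5621, and the 5 maturation markers, among them Klk4, Odam and Amtn, to 83.8, 554 and 5570. Markers of cells other than epithelium were detected in each population: the 10 mesenchyme markers, among them Col3a1, Pdgfra and Pdgfrb, added up to 3149, 4033 and 6209. Without Col3a1, which holds the largest share, the other 9 added up to 1903, 1486 and 2383. Myeloid markers moved with the genes that rose into maturation. Their 8 means added up to 238, 199 and 686. Without Cd74 and Lyz2, which hold the largest shares, the other 6 added up to 110, 79.3 and 169. Of the 8, 6 were higher and none lower in maturation than in secretory cells, where 21.8% of all genes were higher and 21.1% lower. Ptprc and Cd68 were 2.73-fold and 3.89-fold higher there by the authors' deposited table (FDR = 0.0015 and FDR = 0.0081), while Csf1r did not pass (FDR = 0.0954). Endothelial markers added up to 117, 148 and 208, with 2 of 6 higher at that step. Cdh5, Kdr and Tek stood at 41.0, 62.2 and 31.5 in maturation in the authors' deposited table. Mesenchyme markers were higher at that step in 5 of 10. Muscle markers added up to 2.82, 6.49 and 114, and 0 of 5 passed. Osteoclast markers added up to 767, 421 and 726, with 0 of 5 passing in any pair. Of the stratum intermedium markers, Thbd and Cldn10 were 1.8-fold and 4.77-fold higher and Notch1 1.5-fold lower in maturation than in the cervical loop in the authors' deposited table. The part of these cells in the rise of Slc34a2, Xpr1, Alpl and Enpp1 into maturation was not tested.

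**Figure D5:**
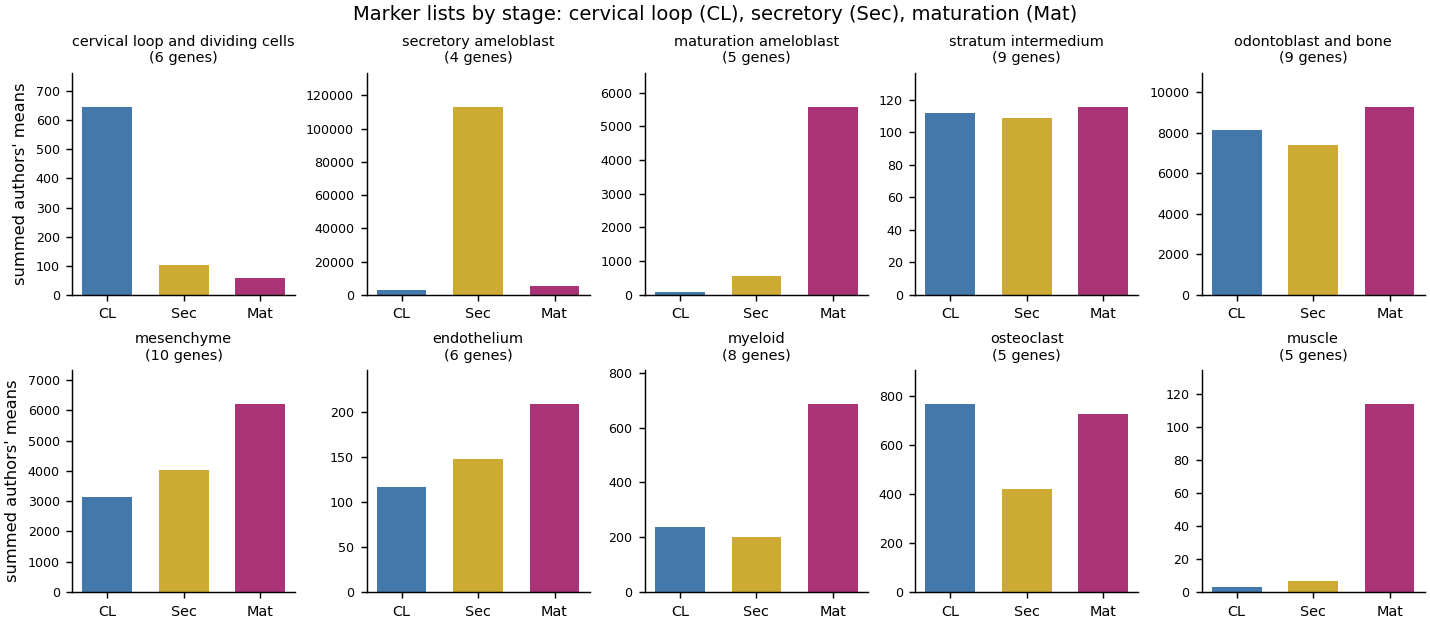
Bars give the authors' means added up over each marker list (vertical axis, normalised linear scale of unstated unit, 1 axis per panel) in the cervical loop (CL), secretory (Sec) and maturation (Mat) populations. Ameloblast lists peak in their own stage, and the myeloid list is highest in maturation at 686, or 169 without Cd74 and Lyz2 (not drawn). The stratum intermedium list stays between 109 and 115 with Notch1 and goes from 30.1 to 61.2 without it (not drawn).

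Genes with the most similar pattern were sought over the 3 stage means, on log2(mean + 1) values centred per gene, among 8609 genes with a highest mean of at least 10. With 3 stages a pattern is set by 2 ratios, so close neighbours are common and describe shape alone. Slc34a2 had the farthest neighbours, Gpr155 at a distance of 0.66 and Odam at 0.68 log2 units. Xpr1 lay nearest Tenm2 (0.14) and Pappa2 (0.17), and Enpp1 nearest Irx3 (0.072) and Plau (0.076). Nearest to Slc20a1 were Tcp11l2 (0.018) and Fuca1 (0.029), and to Slc20a2 Blnk (0.082) and Plbd1 (0.098). Alpl lay nearest Itgb4 (0.0093) and the mesenchyme marker Col3a1 (0.041). Phospho1 had Rgs3 (0.0081) and Sun2 (0.019), and Ankh had Ror2 (0.013) and Zmym3 (0.013). With 0.1 added in place of 1, 5 of these 16 pairs remained.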

How the data were processed

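RNA from 3 stages of the rat enamel organ was sequenced as single-end reads of 75 bases, from libraries with an RNA integrity number of at least 7, per the labels' protocols. The submitters' processing notes name STAR 2.5.3a, Partek and rn6. For the annotation, filters, normalisation and model terms, the answer is not given in the sources used here. The authors deposited 1 least-squares mean per gene and stage, and for each pair of stages a p-value, an FDR and a ratio of the means; 3 secretory means lie below 0, and means up to 0.1 were taken to be at the floor.

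Benjamini-Hochberg adjustment of these p-values across the 16516 genes (threshold 0.05) returned the deposited FDR to within 4.92e-16. The total column equalled 3.99, 3.99 and 5.01 times the stage means added up, so 13 libraries are likely, where the labels leave 14; this was not settled. Per the labels, the 3 populations were taken from 5 rats and the excluded library is named by its rat. With 13 libraries, stages alone would leave 10 error degrees of freedom, and stages with a rat factor 6, the number that fitted best. The deposited tests may therefore already be blocked by rat, which the sources used here do not state. Direction is that of the means, and was taken to be that of the tested effect as well. For the SEs and intervals, the size of the ratio was taken so too. Isoform p-values were adjusted over the genes of each isoform table. Per-library values were not analysed here, so the reads behind each gene and the spread between libraries are unknown. The search for the error degrees of freedom and the adjustment were tested on simulated data. Python 3.11.15, pandas 2.3.3, numpy 2.4.6, scipy 1.17.1 and matplotlib 3.10.9 were used.

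The members, lists, motifs and tests were chosen with earlier results of these data known. Named genes were the 8 members; from each pathway list and pair of stages, up to 2 genes per direction with the largest fold among those that passed with a mean of at least 1; the first 3 genes of each marker list; and the 2 most similar patterns per member. Some of these are given by count or sum only. Alternatives were a threshold of 0.01, the deposited FDR, a filter on the highest mean (at least 1), an added fold of at least 1.5, a pseudocount of 1, other scalings and other deposited sources of the means.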

Additional observations from a re-analysis of the deposited data

How the results depend on the processing

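Counts of the 8 members that passed stayed within 1.5 times under each alternative run (a threshold of 0.01, the deposited FDR, a highest mean of at least 1, an added fold of at least 1.5). The deposited FDR is the same calculation as the main one, so it could not change a count. At 0.01 the counts were 4, 4 and 7 for the 3 pairs of stages in the order used above: Slc34a2 and Phospho1 no longer passed at the first step, nor Alpl at the second. Pathway genes that passed at 0.01 numbered 13 in place of 23 for secretory against cervical loop and 16 in place of 26 for maturation against cervical loop. Of 102 member ratios recomputed with a pseudocount, another scaling or another source of the means, 0 changed direction and 2 moved by over 1.5 times. Both were of Slc34a2 with a pseudocount of 1, with log2 ratios of 1.79 for secretory and 7.36 for maturation against the cervical loop. With that pseudocount the other 22 ratios did not move. The 2 scalings shift every ratio of a pair by at most 0.12 log2 units, and the stage lists of means differ by at most 0.497%. These 3 settings, with 24 ratios each, could therefore not move a ratio by 1.5 times and are no test of it. The isoform count stayed at 0. Taking 5 or 7 error degrees of freedom in place of 6, chosen after seeing the data, moved the median SE of no pair by over 1.5 times. No paired analysis was possible beyond what the deposited tests may hold, because 1 mean is deposited per stage; for the same reason no library could be left out. Depth per gene is unknown, which limits low means such as those of Slc34a2 in the cervical loop and of Phospho1.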
